A study of Mus musculus with 18 samples.

Results

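The mRNAs described here encode the machinery that transcribes genes in the mouse hippocampus: subunits of Mediator, of the 3 nuclear RNA polymerases, of their general transcription factors, of Integrator, and elongation and assembly factors. A gene was a member when it had at least 1 listed peak of N4-acetylcytidine (ac4C), an acetylated cytidine in RNA, in any of 6 mice and its symbol began with Med, Polr, Taf, Ints, Supt, Gtf or Rpap and the digits that mark these families. This gave 71 members of 7598 mRNAs with a peak. The pattern matched 131 protein-coding genes of the RefSeq annotation, so 60 had no listed peak. The 571 peaks of the members merged into 211 regions, of 20038 regions in all.

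Hippocampi of 6-month-old mice were profiled by acRIP-seq, in which RNA fragments pulled down by an antibody to ac4C are sequenced along with the input RNA and with fragments pulled down by IgG. There were 3 5xFAD mice and 3 wild-type (WT) mice, each with 3 libraries (anti-ac4C, input and IgG), 18 in all. 5xFAD mice carry transgenes for human amyloid precursor protein and human presenilin-1, both with familial Alzheimer disease mutations and both driven by the Thy-1 promoter, which is active mainly in neurons, while WT mice carry no transgene. The age was the same in both genotypes, and the transgenes were their labelled difference. The values are the deposited fold enrichment of each peak, a ratio of antibody-captured over input signal. An mRNA's value in a mouse is the sum over its peaks there, with 0 where no peak was listed. The sum depends on how many peaks were listed as well as on how strong they were.

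Mediator is a large complex that carries signals from DNA-bound activators to RNA polymerase II. Its tail binds activators, its head and middle contact the polymerase, and a detachable module with the kinase Cdk8 controls this contact. TFIID recognises core promoters, TFIIIC recruits RNA polymerase III to tRNA genes, SAGA modifies promoter chromatin, and Integrator cleaves nascent transcripts. The mark itself is made by the acetyltransferase Nat10 and has been described mainly in coding sequence, where it has been linked to mRNA stability and translation.

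A choice of member regions is shown as sequence, read on the strand of the transcript from the RefSeq genome of build mm10 (GRCm38). Some were chosen for high values or small p and others for their letters, and regions with higher values or smaller p are left out. By mean over the mice, Med12l exon 38 and Gtf2a1 exon 3 ranked only 2998 and 2562 among all regions. All regions shown lie in coding exons. Capitals mark the longest run of triplets that start with C, written CNN and read in any frame, since CNN is the triplet around which ac4C has been reported. Exons rich in CAG come first, because the most enriched member, Med15, and other members share such stretches. They are exon 6 of 18 of Med15 (chr16:17674405-17674658, minus strand), 240 bases within its exon 7 (chr16:17673101-17673340, minus strand), exon 38 of 44 of Med12l (chr3:59275796-59276034, plus strand) and exon 3 of 9 of Gtf2a1 (chr12:91575584-91575791, minus strand).
Med15 exon 6: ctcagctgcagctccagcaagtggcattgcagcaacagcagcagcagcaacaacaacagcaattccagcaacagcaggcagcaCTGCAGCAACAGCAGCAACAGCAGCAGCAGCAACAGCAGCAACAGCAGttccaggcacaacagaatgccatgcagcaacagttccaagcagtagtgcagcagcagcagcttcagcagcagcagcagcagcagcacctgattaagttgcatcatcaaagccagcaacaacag
Med15 exon 7: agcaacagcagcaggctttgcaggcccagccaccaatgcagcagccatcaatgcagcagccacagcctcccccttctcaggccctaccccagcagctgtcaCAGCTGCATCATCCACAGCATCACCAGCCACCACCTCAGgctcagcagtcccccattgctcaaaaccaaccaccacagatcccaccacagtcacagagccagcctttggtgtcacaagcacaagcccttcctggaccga
Med12l exon 38: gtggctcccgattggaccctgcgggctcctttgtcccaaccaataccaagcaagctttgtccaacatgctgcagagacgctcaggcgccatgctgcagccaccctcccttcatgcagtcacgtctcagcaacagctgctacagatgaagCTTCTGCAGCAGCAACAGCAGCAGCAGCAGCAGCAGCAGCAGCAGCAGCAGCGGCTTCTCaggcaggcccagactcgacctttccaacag
Gtf2a1 exon 3: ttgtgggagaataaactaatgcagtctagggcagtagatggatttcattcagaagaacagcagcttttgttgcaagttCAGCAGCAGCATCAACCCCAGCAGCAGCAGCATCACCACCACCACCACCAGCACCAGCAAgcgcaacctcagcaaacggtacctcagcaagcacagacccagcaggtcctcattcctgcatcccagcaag
Their runs held 16 CNN triplets in Med15 exon 6, of which 11 were CAG, 13 in Med15 exon 7 (4 CAG), 20 in Med12l exon 38 (14 CAG) and 20 in Gtf2a1 exon 3 (9 CAG).

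A second set shows further exons, from the most enriched member and from members or regions with small p in either direction. These are exon 8 of 18 of Med15 (chr16:17671545-17671673, minus strand), exons 8 and 20 of 26 of Rpap1 (chr2:119776666-119776893 and chr2:119769887-119770082, minus strand), exon 10 of 12 of Supt3 (chr17:45041216-45041386, plus strand) and exon 10 of 15 of Med16 (chr10:79898236-79898446, minus strand).
Med15 exon 8: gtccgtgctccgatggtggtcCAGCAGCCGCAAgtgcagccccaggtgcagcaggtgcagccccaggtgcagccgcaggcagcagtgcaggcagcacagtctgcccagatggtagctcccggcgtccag
Rpap1 exon 8: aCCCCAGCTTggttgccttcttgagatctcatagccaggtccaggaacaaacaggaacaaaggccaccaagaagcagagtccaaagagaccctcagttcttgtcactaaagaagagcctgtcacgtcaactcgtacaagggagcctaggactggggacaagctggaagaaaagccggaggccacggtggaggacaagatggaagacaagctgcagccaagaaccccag
Rpap1 exon 20: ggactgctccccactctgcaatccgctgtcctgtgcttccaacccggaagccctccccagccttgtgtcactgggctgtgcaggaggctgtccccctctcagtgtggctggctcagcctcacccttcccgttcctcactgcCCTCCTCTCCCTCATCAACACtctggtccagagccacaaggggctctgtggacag
Supt3 exon 10: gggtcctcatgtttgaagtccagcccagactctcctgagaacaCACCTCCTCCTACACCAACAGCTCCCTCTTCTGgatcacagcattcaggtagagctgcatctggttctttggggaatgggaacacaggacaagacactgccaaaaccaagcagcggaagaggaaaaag
Med16 exon 10: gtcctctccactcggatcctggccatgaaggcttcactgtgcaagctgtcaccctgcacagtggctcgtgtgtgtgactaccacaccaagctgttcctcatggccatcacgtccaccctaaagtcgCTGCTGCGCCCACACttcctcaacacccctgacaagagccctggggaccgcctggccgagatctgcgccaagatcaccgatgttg
The longest runs were 4 triplets in Med15 exon 8, which is also rich in CAG, 3 in Rpap1 exon 8, 7 in Rpap1 exon 20, 11 in Supt3 exon 10 and 5 in Med16 exon 10. A run of at least 5 CNN triplets was present in 109 of 211 member regions (51.7%) and in 54.9% of all regions, and on the opposite strand in 46.9% of member regions and 50.3% of all regions. Runs of at least 10 were found in 8 member regions (3.79%), of Gtf2a1, Gtf2ird1, Med12l, Med15, Supt20, Supt3 and Taf4a, against 6.40% of all regions. Such a match describes the letters only, and the tables place a peak in an exon without resolving the base.

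Between 40 and 52 members were listed per 5xFAD mouse and between 36 and 43 per WT mouse. The counts were 52, 41 and 40 in 5xFAD mice 1, 2 and 3 (44.3 ± 6.66, SD, n = 3), against 43, 42 and 36 in WT mice 1, 2 and 3 (40.3 ± 3.79, n = 3). Only 5xFAD mouse 1 stood above every WT mouse, the genotypes overlapped, and with the same number of strongest peaks taken from each mouse the means were 34.0 in 5xFAD and 37.0 in WT. Member peaks numbered 115, 112 and 79 in the 5xFAD mice, against 97, 90 and 78 in the WT mice. Here each 5xFAD mouse stood above the WT mouse of its number, by 1 peak for number 3. The same held for all listed peaks, at 10234, 10088 and 8459 in the 5xFAD mice and 8375, 7904 and 7434 in the WT mice. Members were 1.01%, 0.81% and 0.908% of the listed mRNAs in the 5xFAD mice, against 0.937%, 0.947% and 0.843% in the WT mice, which overlapped.

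The strength of the listed member peaks set 5xFAD mouse 3 apart. The median fold enrichment of a member peak was 7.63, 7.91 and 13.5 in the 5xFAD mice, against 6.65, 7.04 and 6.57 in the WT mice. Over all peaks it was 7.63, 7.44 and 13.05 in the 5xFAD mice and 7.16, 7.10 and 6.88 in the WT mice, so the members followed the tables they came from. In 5xFAD mouse 3 the weakest listed peak of any mRNA stood at 4.06, and 7 members found in 5xFAD mice 1 and 2 had no peak there. Because each table thus has its own scale, comparisons are also given on one scale, in which each mouse was multiplied by 1 factor so that the median over the 2028 mRNAs listed in every mouse came out equal; the factors ran from 0.682 (5xFAD mouse 3) to 1.464 (WT mouse 3). Per the methods, peaks were held to a limit on adjusted p that nearly all listed false discovery rates do not meet, so a listed peak here is one the tables hold and not one past that limit. The listed rate was under 5% for 1 member peak, in 5xFAD mouse 3, and its median over member peaks was 37.6%, 42.8% and 100% in the 5xFAD mice and 53.65%, 62.8% and 64.8% in the WT mice.

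Marker genes of hippocampal cells were listed in part. Prox1, a transcription factor of dentate granule neurons, stood at 70.5, 77.75 and 62.65 in the 5xFAD mice and 64.3, 60.6 and 60.1 in the WT mice. Of 8 markers of excitatory neurons 6 had a peak (Camk2a and Neurod2 had none). Their sums were 191, 232 and 232 in the 5xFAD mice and 153, 146 and 142 in the WT mice. Within these sums, Grin1 made up 24.3, 39.1 and 93.0 in the 5xFAD mice and 0, 0 and 17.7 in the WT mice. All 3 choroid plexus markers had a peak, and 0 of 3 haemoglobin genes had one. Microglial markers moved with genotype: 8 of 10 had a peak, with sums of 121 to 172 in the 5xFAD mice and 15.8 to 37.95 in the WT mice. The values are ratios over input, and so do not measure cell numbers or RNA amounts directly. The part of cell composition in the values below was not tested.

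Detection of the members was counted by genotype. Of the 71 members, 52 had a peak in both genotypes, 11 only in 5xFAD mice and 8 only in WT mice. None was found in all 3 mice of one genotype and in no mouse of the other. These counts were not made over all mRNAs, so they set the members apart from nothing. Shares by class, given below, have that background. A peak in all 6 mice was found for 19 members (26.8%), against 26.7% of all mRNAs, while 15 members had a peak in 1 mouse only. The number of regions per member had a median of 2, the same as over all mRNAs, 28 members had 1 region and 12 had 5 or more. Med13l led with 15 regions, followed by Med12l and Ints1 with 12 each and Med15 with 10. Across the 61 members with a known transcript length, the number of regions and that length had a Spearman's rho of 0.33, and across all 5541 such mRNAs 0.34; these are descriptions across genes of the same 6 tables, and genes are not independent replicates.

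**Figure D1:**
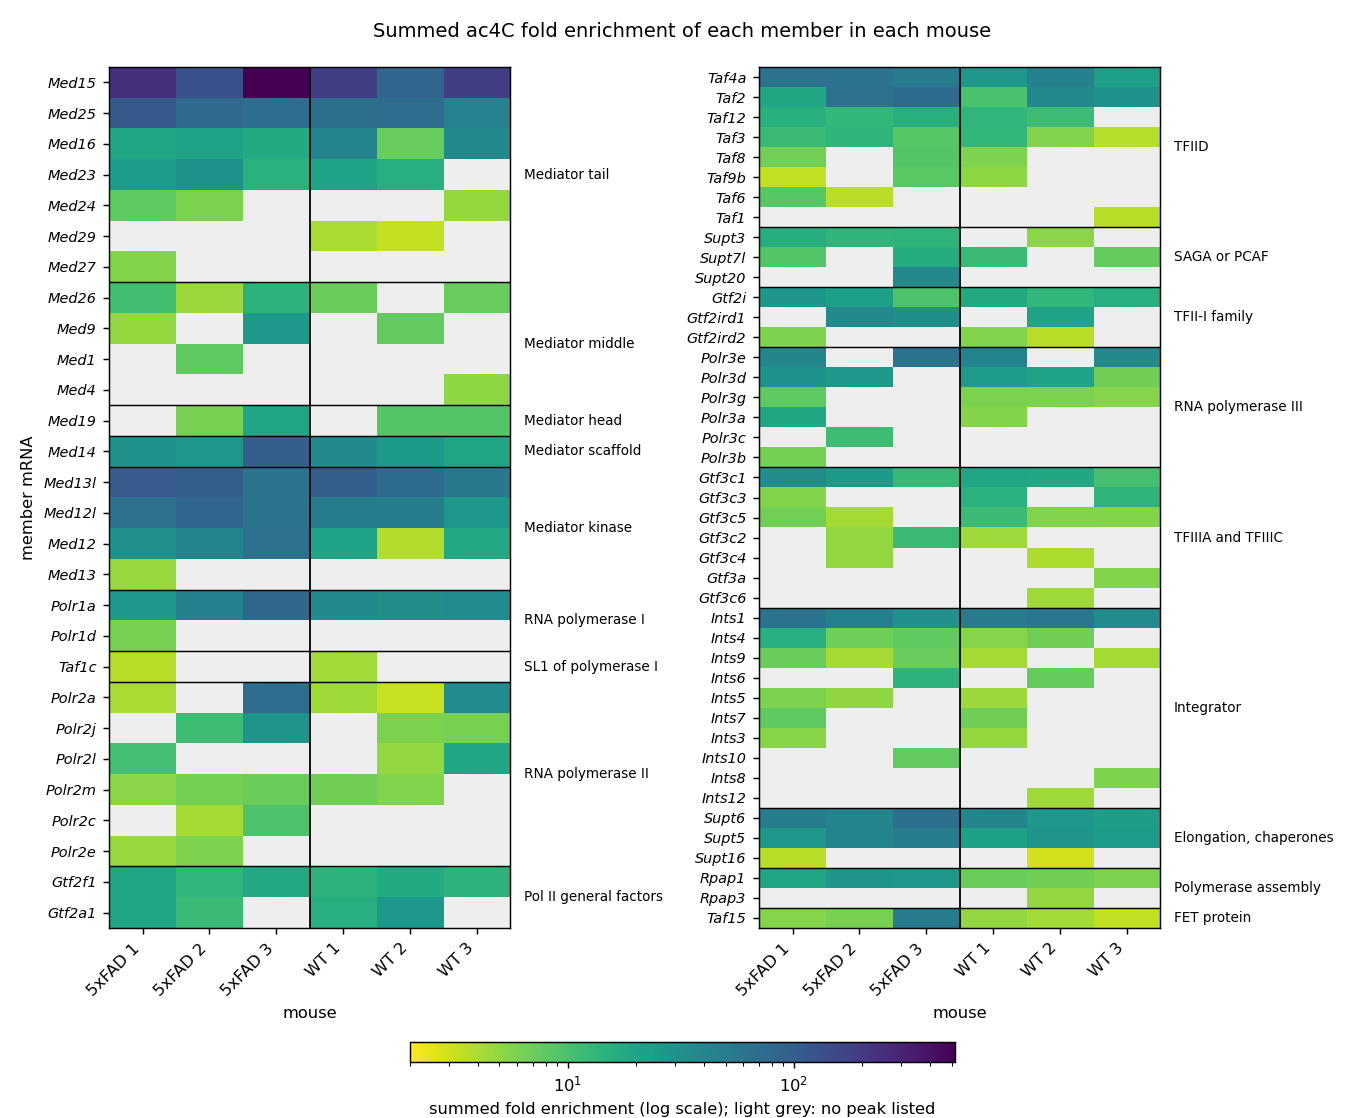
Summed fold enrichment (colour, log scale) of each of the 71 members (rows, grouped by complex) in each mouse (columns, 5xFAD left of WT, separated by a black line), with light grey for no listed peak. A few long rows, such as Med15, Med13l, Taf4a and Ints1, are filled in all 6 mice, while many Integrator and RNA polymerase III rows are filled in 1 or 2 mice.

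An mRNA was taken as reliable in a genotype when at least 2 of its 3 mice had a peak, which 49 members met in at least 1 genotype. It was overlay when reliable in both, AD unique when reliable in 5xFAD only and AD absent when reliable in WT only. Of the members, 33 were overlay (46.5%, against 50.7% of all mRNAs), 11 were AD unique (15.5% against 13.3%), 5 were AD absent (7.04% against 7.71%) and 22 were reliable in neither (31.0% against 28.3%). The shares of the members thus lay within 5 percentage points of those of all mRNAs. Of the 211 member regions, 62 were overlay (29.4%, against 27.7% of all regions), 32 AD unique (15.2% against 14.2%) and 22 AD absent (10.4% against 8.17%).

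Peaks of the members lay mainly in coding sequence. The share of peaks that the tables place there, away from the exons of the start and stop codon, was 61.8% ± 3.60 in 5xFAD and 62.0% ± 4.15 in WT (SD, n = 3 each), so the genotypes overlapped. Over all mRNAs it was 52.5% ± 0.895 in 5xFAD and 50.0% ± 0.936 in WT, and in each of the 6 mice the members' share was above that of all mRNAs. Exons of the stop codon held 20.8% ± 3.94 of member peaks in 5xFAD and 19.6% ± 1.61 in WT, and exons of the start codon 11.7% ± 4.25 in 5xFAD and 14.2% ± 3.40 in WT. Over all mRNAs, start codon exons held 18.2% ± 1.56 in 5xFAD and 21.8% ± 2.13 in WT. The 5′ UTR held 4.5% ± 0.791 of member peaks in 5xFAD and 3.08% ± 0.919 in WT, and the 3′ UTR 1.31% ± 0.459 in 5xFAD and 1.14% ± 0.128 in WT.

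**Figure D2:**
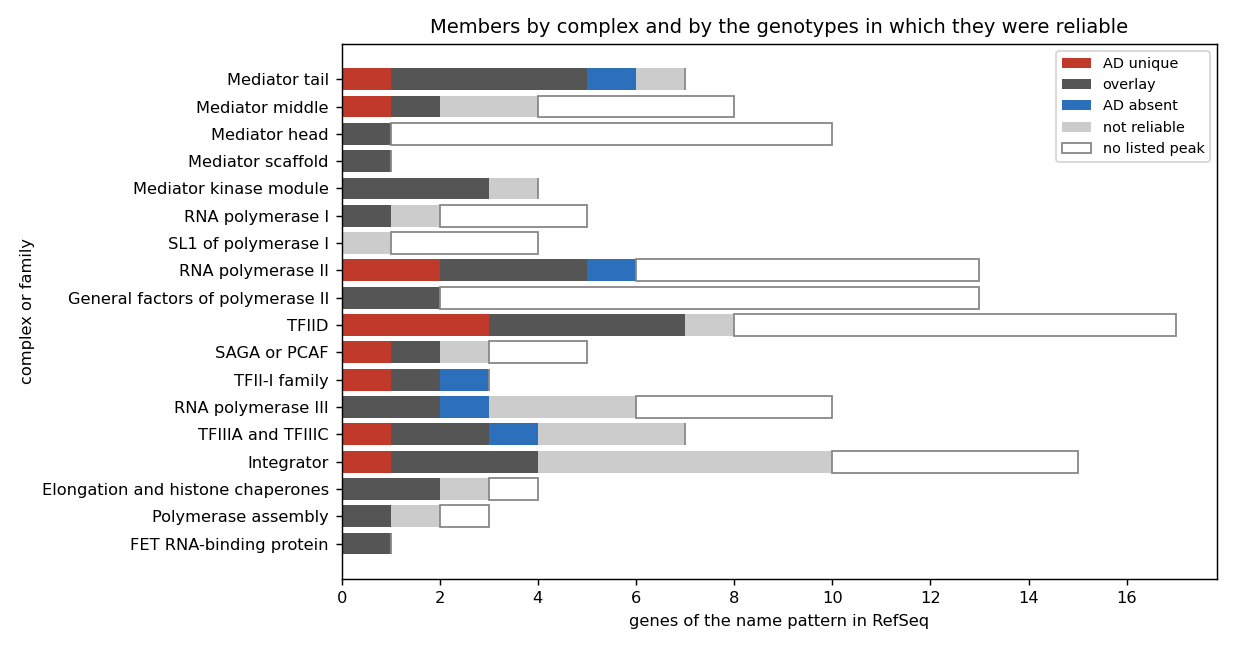
Number of genes of each complex or family (horizontal axis) that were AD unique (red), overlay (dark grey), AD absent (blue), reliable in neither genotype (light grey) or without a listed peak (white), of the RefSeq genes that match the names. All 7 tail subunits of Mediator and all 4 subunits named for its kinase module had a peak, against 1 of 10 head subunits.

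Mediator held the largest part of the members' signal. Its 17 members of 30 subunits supplied 50.4% of the fold enrichment summed over all members and mice, in 75 regions. All 7 tail subunits had a peak, as did the scaffold Med14 and the 4 subunits named for the kinase module, but 4 of 8 middle subunits and 1 of 10 head subunits, Med19. The sums over Mediator were 656, 533 and 964 in the 5xFAD mice, against 531, 352 and 412 in the WT mice, without overlap as deposited and with overlap on one scale. Of its 13 reliable members 11 were higher in 5xFAD and 8 on one scale; over all reliable mRNAs, 75% and 51.5% were.

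Med15, the tail subunit that binds many activators through glutamine-rich stretches, had the fourth highest mean of all mRNAs. It stood at 239.6, 128 and 516 in the 5xFAD mice, against 186, 84.6 and 185 in the WT mice. The highest value was that of 5xFAD mouse 3, where Med15 made up 28.5% of the members' sum, and the genotypes overlapped. The log2 fold change was 0.81 ± 0.73 (SE), and 0.20 on one scale.

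Within Med15 the signal lay mainly in exons 6 to 9 and exon 12. The region of exon 7 stood at 141, 0 and 383 in the 5xFAD mice, against 143, 0 and 91.3 in the WT mice, and was the fifth highest of all 20038 regions by its mean. The mice numbered 2 had no peak there in either genotype, and those numbered 1 had none in exon 12, which stood at 0, 38.7 and 59.6 in the 5xFAD mice and 0, 29.2 and 36.9 in the WT mice. Exon 6, with the longest run of CAG in Med15, stood at 48.96, 31.9 and 0 in the 5xFAD mice, against 0, 0 and 22.0 in the WT mice. Exon 8, with a shorter CNN run than exons 6 and 7, was listed in all 6 mice. It stood at 23.65, 23.8 and 36.3 in the 5xFAD mice and 19.1, 20.4 and 14.5 in the WT mice. Each 5xFAD value lay above each WT value as deposited, while on one scale the genotypes overlapped (log2 fold change 0.59, and 0.00 on one scale).

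The kinase module was represented mainly by Med13l, Med12l and Med12. Med13l, a paralogue of the subunit that tethers the module to Mediator, stood at 105, 96.1 and 61.25 in the 5xFAD mice, against 95.6, 74.7 and 54.8 in the WT mice. It was higher in the 5xFAD mouse of every number, but on one scale lower in every one, at a log2 fold change of -0.39. Med12l, a paralogue of Med12, stood at 64.4, 85.5 and 60.7 in the 5xFAD mice, against 49.98, 49.8 and 26.7 in the WT mice, without overlap as deposited and with overlap on one scale (log2 fold change 0.76 ± 0.55, and 0.16 on one scale). Its CAG-rich exon 38 was listed in all 6 mice at modest values, 10.9, 6.35 and 15.4 in the 5xFAD mice and 5.71, 6.48 and 6.28 in the WT mice.

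Med12, which activates the Cdk8 kinase, had genotypes that did not overlap on either scale, which on one scale held for 3 of the 49 reliable members and for 4.94% of all reliable mRNAs. It stood at 31.4, 42.7 and 65.0 in the 5xFAD mice, against 21.3, 3.83 and 18.05 in the WT mice. Its log2 fold change was 1.84 ± 0.78 and 1.26 on one scale (limma over all reliable mRNAs, unadjusted p = 0.053, adjusted p = 0.582). Most of it came from the exon of the stop codon, at 26.7, 27.7 and 49.6 in the 5xFAD mice and 21.3, 0 and 18.05 in the WT mice, where an exon of Gm21986 overlaps on the same strand. Med13 itself had 1 peak, in 5xFAD mouse 1.

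The remaining Mediator members ran from strong to barely listed. Med25, a tail-associated subunit bound by viral and cellular activators, stood at 107, 78.5 and 71.9 in the 5xFAD mice, against 66.7, 71.7 and 44.2 in the WT mice. Its 5xFAD value in mouse 3 lay just above the highest WT value, so the genotypes did not overlap, while on one scale they did (log2 fold change -0.11). Med14, the scaffold that joins head, middle and tail, stood at 30.6, 26.8 and 97.3 in the 5xFAD mice, against 36.3, 24.9 and 19.7 in the WT mice, and only 5xFAD mouse 3 was above all WT mice. Med16, a tail subunit, went the other way in part, at 19.7, 20.96 and 17.5 in the 5xFAD mice, against 43.5, 7.28 and 36.9 in the WT mice. Its exon 10, printed above, was listed in no 5xFAD mouse and at 35.3, 0 and 19.8 in the WT mice (limma over regions, unadjusted p = 0.0604, adjusted p = 0.482). That exon was tested only because the WT mice list it, which fixed its direction. Med26, a middle subunit that links Mediator to elongation factors, and the tail subunit Med23 had log2 fold changes of 1.31 ± 1.00 and 1.69 ± 1.25, and both lacked a peak in 1 WT mouse.

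**Figure D3:**
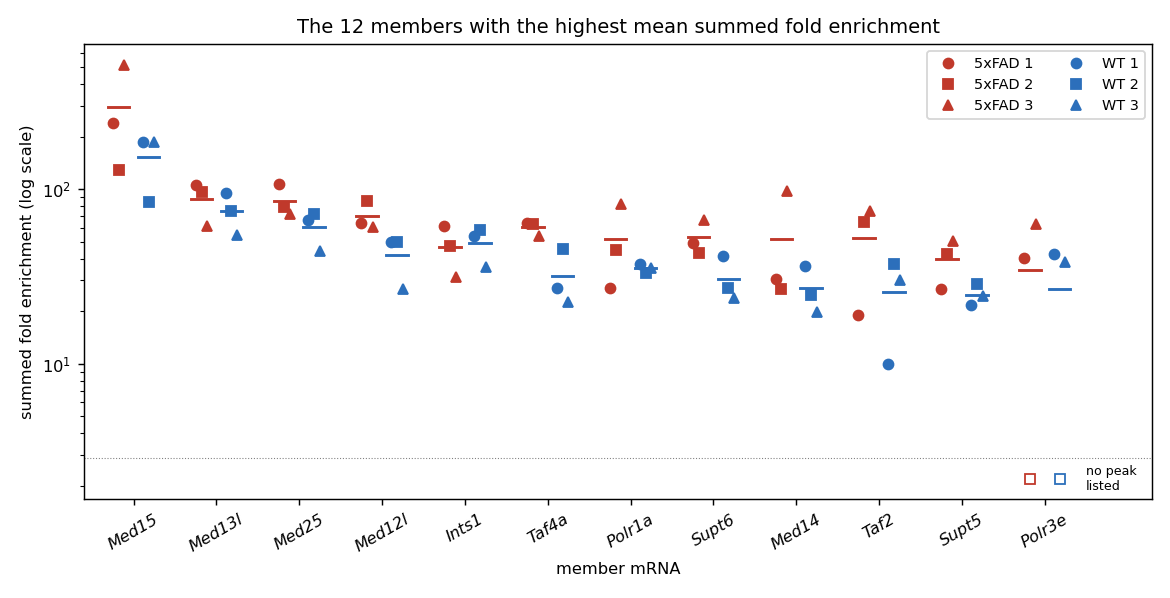
Summed fold enrichment (vertical axis, log scale) of the 12 members with the highest mean, in each 5xFAD mouse (red) and WT mouse (blue), with the mouse number as symbol, horizontal lines at the genotype means and open symbols below the dotted line where no peak was listed. Med15 in 5xFAD mouse 3 is the highest point at 516, and Polr3e lacks a peak in the mice numbered 2 of both genotypes.

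TFIID had 8 members of 17 genes, 7 of them reliable and none called, with sums of 129, 158 and 171 in the 5xFAD mice, against 74.9, 99.9 and 59.8 in the WT mice, without overlap as deposited and with overlap on one scale. Its 4 overlay members were higher in 5xFAD on both scales, where 75% of all reliable mRNAs were higher as deposited and 51.5% on one scale. The other 3 were AD unique, and so were taken in through the 5xFAD mice. Taf4a, the name the tables give to Taf4, a TFIID subunit that contacts activators, stood at 63.8, 63.2 and 54.2 in the 5xFAD mice, against 27.1, 45.4 and 22.5 in the WT mice. The 5xFAD values were close together and all above the WT values, at a log2 fold change of 0.97 ± 0.54 (adjusted p = 0.645), and 0.37 on one scale, where the genotypes overlapped. Its exon 1, which overlaps an exon of 4921531C22Rik on the other strand, was the strongest, at 22.4, 25.3 and 30.2 in the 5xFAD mice and 14.1, 18.8 and 15.2 in the WT mice.

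Taf2, a TFIID subunit that binds the initiator, stood at 19.0, 64.5 and 74.9 in the 5xFAD mice, against 9.97, 37.3 and 29.98 in the WT mice. The mice numbered 1 were low in both genotypes, since neither had a peak in the stop codon exon, and each 5xFAD mouse stood above the WT mouse of its number on both scales. Taf12, a histone-fold subunit, stood at 15.3, 13.2 and 15.9 in the 5xFAD mice, against 13.5, 11.55 and 0 in the WT mice. AD unique TFIID members were Taf8, Taf9b and Taf6, and Taf6, another histone-fold subunit, stood at 8.47, 3.53 and 0 in the 5xFAD mice and had no peak in WT mice. Its peaks lay in 3 regions, each found in 1 mouse, and one of them overlaps an exon of Ap4m1 on the other strand. Taf1, the largest subunit, had a peak in WT mouse 3 only.

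Among SAGA subunits, Supt3 had the smallest p of all members in the test over mRNAs. It was AD unique, and so was taken in through the 5xFAD mice. Supt3, a histone-fold subunit that helps to place the TATA-binding protein, stood at 16.3, 13.6 and 13.8 in the 5xFAD mice, against 0, 5.22 and 0 in the WT mice. The 5xFAD values were similar to each other and above all WT values on both scales, at a log2 fold change of 3.08 ± 0.85 and 2.75 on one scale (limma, unadjusted p = 0.0102, adjusted p = 0.439). Its exon 10, printed above, accounted for 9.23, 8.45 and 13.8 in the 5xFAD mice and for all of the WT signal, 5.22 in WT mouse 2. Supt7l was listed at 9.13, 0 and 16.6 in the 5xFAD mice and 12.34, 0 and 7.44 in the WT mice, absent from the mice numbered 2 of both genotypes. Supt20 had peaks in 5xFAD mouse 3 only, at 37.96.

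RNA polymerase II was represented by 6 of 13 genes, most of them weakly. Polr2a, the catalytic subunit, stood at 4.06, 0 and 69.4 in the 5xFAD mice, against 4.38, 3.19 and 34.4 in the WT mice. Both mice numbered 3 were high through a peak in the stop codon exon that the other mice lacked, and the log2 fold change was -0.39 ± 1.69. Polr2e, a subunit shared by all 3 polymerases, stood at 4.75, 5.87 and 0 in the 5xFAD mice and had no peak in WT mice, and Polr2c, an assembly subunit, at 0, 4.20 and 9.37 with none in WT mice. The Polr2c region overlaps an exon of Dok4 on the other strand. Both were AD unique, and so were tested only because the 5xFAD mice list them, which fixed their direction. Without 5xFAD mouse 3, Polr2e passed limma's test over all reliable mRNAs (adjusted p = 0.0283). The mouse left out is the 5xFAD mouse that lacks its peak, so this pass is no separate evidence. Over all alternatives the adjusted p of Polr2e ran from 0.0283 to 0.788. Polr2l, another shared subunit, went the other way, at 10.46, 0 and 0 in the 5xFAD mice, against 0, 4.91 and 19.2 in the WT mice. Its stop codon region in exon 2 was listed in WT mice 2 and 3 only, at 4.91 and 6.6 (limma over regions, unadjusted p = 0.0861). That region was tested only because the WT mice list it, which fixed its direction.

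Of the general factors of polymerase II, 2 of 13 had a peak. Gtf2f1, the large subunit of TFIIF, was listed in all 6 mice at 19.65, 13.5 and 18.2 in the 5xFAD mice and 14.4, 17.4 and 14.1 in the WT mice, which overlapped. Gtf2a1, of TFIIA, stood at 19.4, 11.95 and 0 in the 5xFAD mice, against 15.8, 26.9 and 0 in the WT mice. Its CAG-rich exon 3 was listed at 14.5, 11.95 and 0 in the 5xFAD mice and 15.8, 13.5 and 0 in the WT mice, absent from both mice numbered 3. All 3 genes of the TFII-I family had a peak, led by Gtf2i at 27.3, 22.6 and 9.35 in the 5xFAD mice and 17.7, 13.1 and 15.55 in the WT mice. Gtf2ird1 was AD unique, at 0, 38.2 and 32.25 in the 5xFAD mice, against 0, 21.1 and 0 in the WT mice. Gtf2ird2 was AD absent, at 5.83, 0 and 0 in the 5xFAD mice, against 5.72, 3.64 and 0 in the WT mice, so the values overlapped.

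RNA polymerase I was carried by its catalytic subunit Polr1a, at 27.05, 45.1 and 82.6 in the 5xFAD mice, against 37.1, 33.2 and 35.2 in the WT mice. The WT values were tight (35.2 ± 1.93, SD, n = 3) and the 5xFAD values spread to both sides of them, so the log2 fold change of 0.40 ± 0.61, and -0.20 on one scale, was within the spread. Polr1d had a peak in 5xFAD mouse 1 only, and Taf1c of the promoter factor SL1 in the mice numbered 1.

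Genes of the polymerase III system gave values on both sides, without a call. Of 3 reliable polymerase III subunits 1 was higher and 2 lower in 5xFAD, and on one scale all 3 were lower. Over all reliable mRNAs, 75% were higher as deposited and 51.5% on one scale. Of the 3 subunits, Polr3g was reliable in WT only, and so was taken in through the WT mice. Polr3e stood at 40.1, 0 and 62.9 in the 5xFAD mice, against 42.7, 0 and 38.1 in the WT mice, all in 1 region of the 5′ UTR that the mice numbered 2 lacked. Polr3d was listed at 30.9, 25.65 and 0 in the 5xFAD mice and 24.0, 21.1 and 6.75 in the WT mice. Polr3g, AD absent, stood at 8.02, 0 and 0 in the 5xFAD mice, against 6.05, 6.01 and 5.49 in the WT mice, at a log2 fold change of -1.72 ± 0.97 (adjusted p = 0.652).

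TFIIIC binds the internal promoter of tRNA genes, and all 7 genes of the TFIIIA and TFIIIC group had a peak. Gtf3c1, its largest DNA-binding subunit, stood at 33.7, 25.2 and 12.5 in the 5xFAD mice, against 19.9, 18.9 and 10.4 in the WT mice, and the genotypes overlapped. Gtf3c5 was the only member that was lower in the 5xFAD mouse of every number as deposited, at 6.56, 4.22 and 0 in the 5xFAD mice, against 11.8, 5.7 and 5.65 in the WT mice. Its genotypes overlapped as deposited and not on one scale (log2 fold change -1.28 ± 0.90, and -1.66 on one scale, adjusted p = 0.748 as deposited). Gtf3c3, AD absent, stood at 5.59, 0 and 0 in the 5xFAD mice, against 14.8, 0 and 13.6 in the WT mice. Gtf3c2, AD unique, was listed at 0, 4.97 and 11.9 in the 5xFAD mice and 4.53, 0 and 0 in the WT mice.

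Integrator had 10 of 15 genes with a peak, of which 6 were reliable in neither genotype. Ints1, its large scaffold, was the exception, at 61.45, 46.9 and 31.5 in the 5xFAD mice, against 53.7, 58.4 and 35.9 in the WT mice. The genotypes overlapped, with a log2 fold change of -0.10 ± 0.56, and -0.70 on one scale, where it was lower in the 5xFAD mouse of every number. Its exon 33 was listed in no 5xFAD mouse and at 14.45, 9.57 and 0 in the WT mice (limma over regions, unadjusted p = 0.069). That exon was tested only because the WT mice list it, which fixed its direction. Ints4, of the cleavage module, stood at 15.9, 6.80 and 7.83 in the 5xFAD mice, against 5.55, 6.64 and 0 in the WT mice, without overlap as deposited and with overlap on one scale.

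Elongation factors were among the stronger members. Supt6, a histone chaperone that travels with polymerase II, stood at 49.1, 42.9 and 66.65 in the 5xFAD mice, against 41.2, 27.05 and 23.7 in the WT mice, without overlap as deposited and with overlap on one scale. The difference lay mainly in exon 35, at 18.7, 18.9 and 37.9 in the 5xFAD mice and 13.8, 0 and 0 in the WT mice (limma over regions, unadjusted p = 0.0299, adjusted p = 0.482). That region was AD unique, and so was tested only because the 5xFAD mice list it. The stop codon exon overlapped between the genotypes at 30.4, 24.0 and 28.8 in the 5xFAD mice and 21.65, 27.05 and 17.96 in the WT mice. Supt5, a subunit of the pausing and elongation factor DSIF, stood at 26.8, 42.3 and 50.7 in the 5xFAD mice, against 21.7, 28.55 and 24.3 in the WT mice. Its log2 fold change of 0.63 ± 0.54 was 0.03 on one scale. Taf15, an RNA-binding protein of the FET family, stood at 5.53, 6.19 and 52.6 in the 5xFAD mice, against 4.88, 4.30 and 3.30 in the WT mice, and its high value in 5xFAD mouse 3 came from 3 regions, of which the other mice had 1.

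Rpap1, a factor in the nuclear assembly of RNA polymerase II, had 5xFAD values well apart from its WT values. It stood at 19.7, 27.3 and 26.7 in the 5xFAD mice, against 7.0, 6.66 and 5.96 in the WT mice, with means of 24.6 ± 4.25 in 5xFAD and 6.54 ± 0.530 in WT (SD, n = 3 each). The genotypes were far apart beside their spread, and did not overlap on one scale either. The log2 fold change was 1.75 ± 0.50, and 1.19 on one scale (limma over all reliable mRNAs, unadjusted p = 0.0118, adjusted p = 0.488; the adjusted p over all alternatives ran from 0.128 to 0.693).

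Both Rpap1 exons printed above took part. Exon 8, the only region listed in WT mice, stood at 15.1, 13.0 and 18.5 in the 5xFAD mice, against 7.0, 6.66 and 5.96 in the WT mice. Exon 20 stood at 4.62, 3.52 and 8.21 in the 5xFAD mice and was listed at 0 in each WT mouse. This region was tested only because the 5xFAD mice list it, which fixed its direction. It had the smallest p of the member regions (limma over regions, unadjusted p = 0.0032, adjusted p = 0.13), and its adjusted p over the alternatives ran from 0.00497 to 0.4995, passing with a pseudocount of 0.1, with 3 of 3 mice required and without 5xFAD mouse 3.

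**Figure D4:**
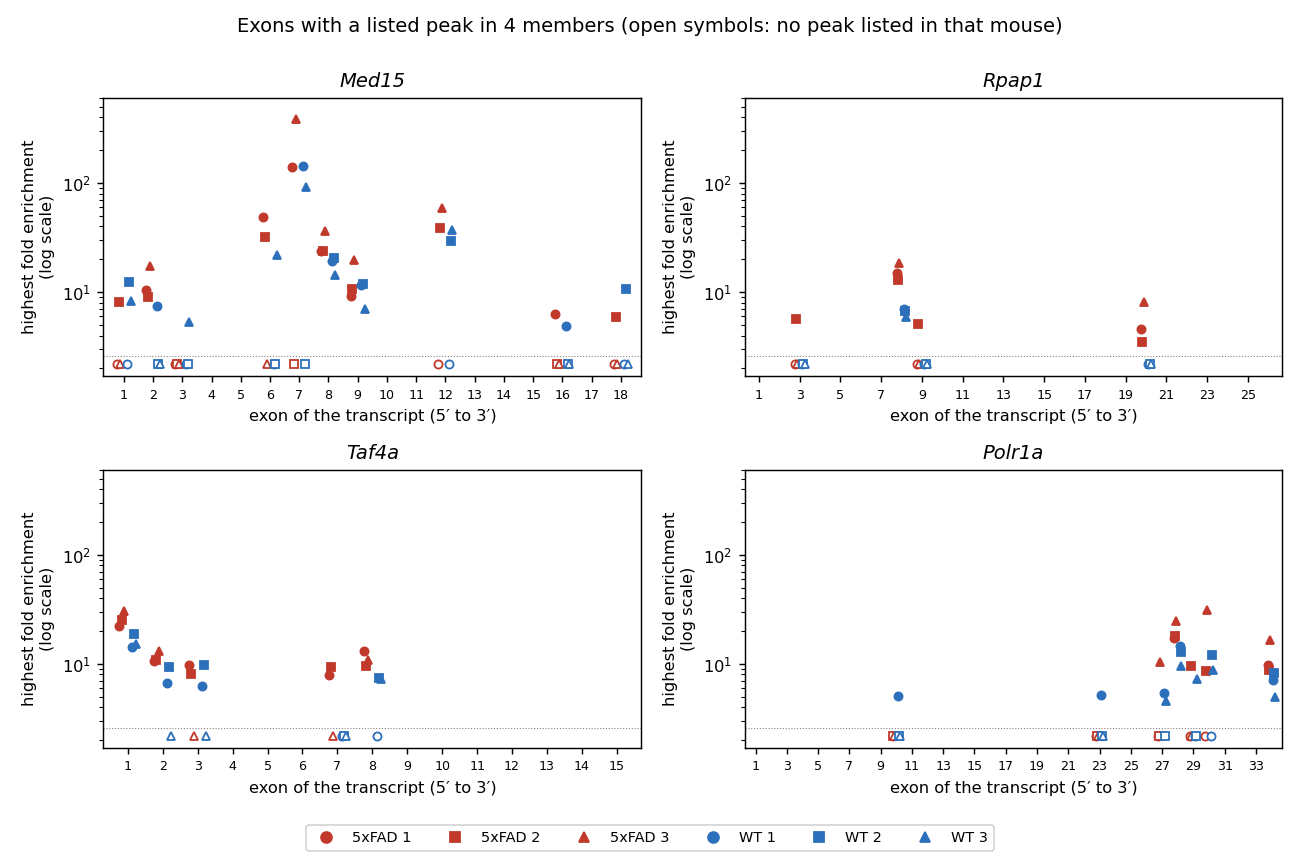
Highest fold enrichment of a peak (vertical axis, log scale) by exon of the transcript (horizontal axis, 5′ to 3′) for Med15, Rpap1, Taf4a and Polr1a in each 5xFAD mouse (red) and WT mouse (blue), with open symbols below the dotted line where that mouse had no peak in a listed exon. Med15 peaks in exon 7 at 383 in 5xFAD mouse 3, and Rpap1 exon 8 separates the genotypes, 13.0 to 18.5 in 5xFAD and 5.96 to 7.0 in WT.

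Over the members as a whole, no mRNA passed the test. Among overlay mRNAs, limma on log2(summed fold enrichment + 1) with Benjamini-Hochberg adjustment called 0 of 3851 (0%) and none of the 33 overlay members at an adjusted p under 0.05. At an unadjusted p under 0.05, 2 of the 33 members were higher and 0 lower, against 2.39% of overlay mRNAs higher and 0.0519% lower, and the smallest adjusted p of a member was 0.901. The median log2 fold change was 0.69 for the members and 0.46 for all overlay mRNAs, with 27 of 33 members positive. Over all reliable mRNAs, again 0 (0%) and none of 49 members passed, with 2 members higher (Supt3 and Rpap1) and 0 lower at an unadjusted p under 0.05, against 5.03% higher and 0.606% lower of all. Of the 49 members 38 were above 0, against 75% of all mRNAs, with median log2 fold changes of 0.78 for the members and 0.54 for all. On one scale 29 of 49 were above 0, against 51.5% of all, with medians of 0.18 for the members and 0.02 for all, and 0 members passed, against 10 mRNAs in all (0.184%). Without 5xFAD mouse 3, 247 mRNAs were called, of which 1 was a member, Polr2e. It is listed in 5xFAD mice only and has no peak in the mouse left out.

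Counted without a model, 9 of the 49 members had all 5xFAD values above all WT values, namely Ints4, Med12, Med12l, Med25, Rpap1, Supt3, Supt6, Taf15 and Taf4a, against 14.6% of all reliable mRNAs. None had all 5xFAD values below all WT values, against 0.771% of all. On one scale 3 remained above, Med12, Rpap1 and Supt3 (4.94% of all), and Gtf3c5 was below (3.62% of all). Between mice of the same number, 18 members were higher in 5xFAD in 3 of 3 pairs (30.2% of all) and 1, Gtf3c5, was lower (1.97% of all). On one scale 5 were higher, Med12, Rpap1, Supt3, Taf2 and Taf4a (10.7% of all), and 5 were lower, Gtf3c5, Ints1, Med13l, Polr2a and Polr3d (10.3% of all). Med12, Rpap1 and Supt3 were in each count of higher members. These counts are not separate, since a member without overlap is higher in 3 of 3 pairs by construction. Supt3, being AD unique, was taken in through the 5xFAD mice.

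**Figure D5:**
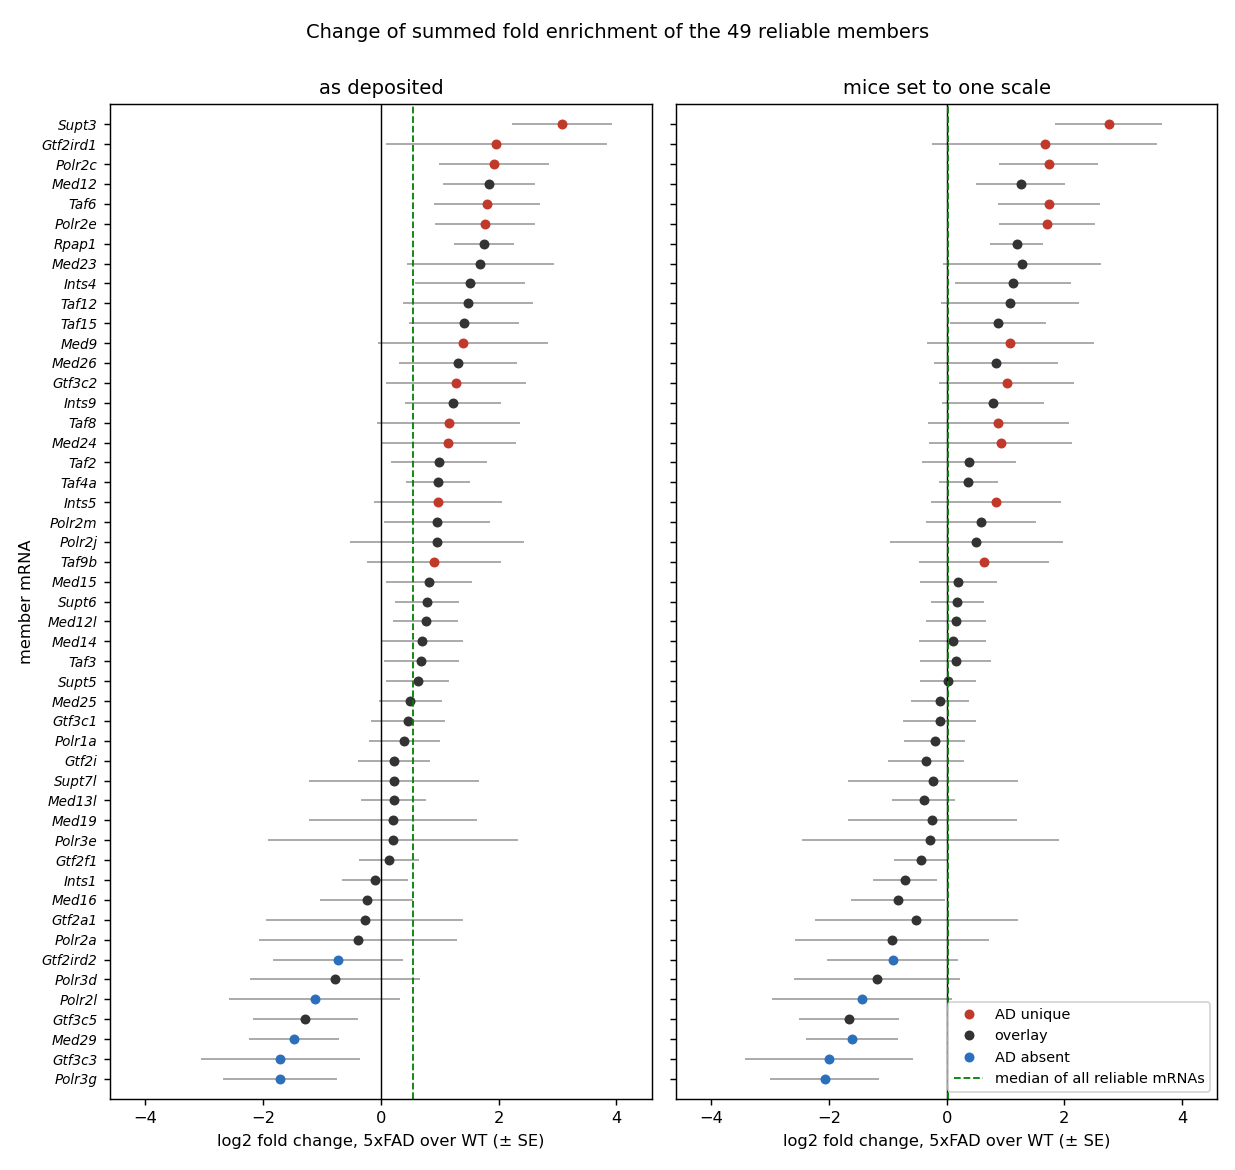
Log2 fold change, 5xFAD over WT (horizontal axis, points, with bars of ± 1 SE from limma), of the 49 reliable members, as deposited on the left and on one scale on the right, coloured by class, with a dashed line at the median of all reliable mRNAs (0.54 and 0.02). Most points lie right of 0 as deposited and on both sides of 0 on one scale; the places of Polr2c, Taf6, Polr2e and Med29, with no peak in 1 genotype, depend on the pseudocount of 1.

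AD unique members with a mean plus 1 at least 2 times that in WT were Gtf2ird1, Supt3, Med9, Gtf3c2, Taf8, Med24, Polr2c, Taf6 and Polr2e, 9 of the 49 reliable members, against 15% of all reliable mRNAs. The middle subunit Med9 stood at 4.86, 0 and 25.4 in the 5xFAD mice, against 0, 7.59 and 0 in the WT mice, and the tail subunit Med24 at 7.95, 5.95 and 0 in the 5xFAD mice, against 0, 0 and 4.79 in the WT mice. Taf8, which joins Taf10 in TFIID, stood at 6.56, 0 and 8.95 in the 5xFAD mice, against 5.88, 0 and 0 in the WT mice. AD absent members past the same limit in the other direction were Gtf3c3, Med29 and Polr2l, 3 of 49, against 3.97% of all. The tail subunit Med29 was listed in no 5xFAD mouse and at 4.01, 3.28 and 0 in the WT mice.

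Region by region, 116 member regions were reliable, and limma called none of them and 0 of 10027 regions in all (0%). At an unadjusted p under 0.05, 4 member regions were higher in 5xFAD and 0 lower, against 4.57% and 0.539% of all regions. The median log2 fold change was 0.42 for member regions and 0.44 for all, and on one scale -0.01 for both, where 200 regions in all (1.99%) and 0 member regions passed. Of the member regions 21 were listed in all 6 mice (9.95%, against 8.63% of all), while 73 (34.6%) were listed in 1 mouse, against 34.7% of all.

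Across the 211 member regions, the mean fold enrichment in the mice that listed a region had a Spearman's rho of 0.26 with the longest CNN run, 0.18 with the percentage of C and 0.24 with region length. Across all 20038 regions these were 0.20, 0.15 and 0.18. The points share the same 6 tables and regions of 1 mRNA share a transcript, and a longer region can hold a longer run. Member regions had a median of 27.7% C and 54.5% GC over 208 bases, against 28.4%, 55.6% and 222 bases for all regions. In 12 member regions the exon overlaps an exon of another gene, on the same or the other strand.

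Which members were listed was shared most clearly by the mice numbered 1. Of the 71 members, 29 were listed in the same numbers in both genotypes, 10 of them in fewer than all 6 mice, among them Polr3e, Supt7l, Gtf2a1, Polr2j and Med19; over all mRNAs the share was 42.2%. For number 1 the 5xFAD and WT mouse agreed on 58 of 71 members, for number 2 on 50 and for number 3 on 47, while mice of different numbers agreed on 43 to 50, a range that takes in the values of numbers 2 and 3. The labels give no meaning to the number beyond the replicate.

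Partners of these complexes that the name pattern does not take in were counted in the same way. Of 48 such genes (among them cyclin-dependent kinases of transcription, the P-TEFb and super elongation complexes and initiation factors) 37 had a peak and 28 were reliable, of which 20 were higher and 8 lower, none called by limma and 1, Cdk12, higher at an unadjusted p under 0.05. The median log2 fold change was 0.52, and -0.04 on one scale, where 13 of 28 were higher, against 75% of all reliable mRNAs as deposited and 51.5% on one scale. Tbp, the TATA-binding protein at the core of TFIID, stood at 32.65, 32.1 and 72.4 in the 5xFAD mice, against 26.25, 28.6 and 19.0 in the WT mice. Cdk19, a paralogue of Cdk8 in the kinase module, stood at 17.5, 11.52 and 22.1 in the 5xFAD mice, against 9.60, 6.44 and 4.00 in the WT mice. For both genes the genotypes did not overlap as deposited, as for 14.6% of all reliable mRNAs, and overlapped on one scale. The TFIIH kinase Cdk7 with its partners Ccnh and Mnat1, and Ccnc, the cyclin of Cdk8, had no listed peak.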

How the data were processed

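The authors trimmed reads with cutadapt 1.9.3, aligned them with HISAT2 2.04 (mm10) and used MACS to call peaks per mouse, anti-ac4C library against input, keeping exons of protein-coding genes and dropping peaks that overlapped IgG peaks. The deposited tables give each peak a fold enrichment (a ratio), a score and an FDR in percent. The methods describe a ratio with IgG signal subtracted, whether the deposited column is that ratio is unknown here, and they describe no scaling between mice. The tables hold no read counts, so depth is unknown and precision rests on the spread between the mice of a group.

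All listed peaks were used. Sums per mRNA, and the highest peak per region (peaks of all mice merged on an overlap of 1 bp or more, same strand), were compared in R 4.3.3, using limma 3.58.1 on log2(value + 1), with Benjamini-Hochberg adjustment over the whole table and calls at an adjusted p under 0.05. The script was tested on simulated data with planted changes larger than that of any overlay member and without missing peaks. That test does not show whether changes of the size seen here could be called. This scale understates changes of weak mRNAs, and the text prints no fitted fold against a genotype with no listed peak; the plot of log2 fold changes and the 2-fold class limit use the value plus 1. Values in every mouse are given for the 12 members with the highest mean, the 6 per direction with the smallest p, AD unique and AD absent members past a fold of 2, the leading member of each complex and the 3 regions per direction with the smallest p, and for further members chosen after their values were seen. Members and gene lists were chosen with earlier results of these data known. Mice of the same number deviated together (Pearson's r across reliable mRNAs of 0.53, 0.47 and 0.29 for numbers 1, 2 and 3, below 0 for other pairs), so a fit with the number as a block was run beside the main one. The other alternatives were one scale, a pseudocount of 0.1, the highest peak, limits on fold enrichment (at least 4) and score (at least 50), equal numbers of top peaks (7434), an overlap of 50 bp, 3 of 3 mice and each mouse left out. Of 10655 transcripts named in the tables, 6826 were found in the RefSeq release used for transcript lengths and exon numbers. List counts and sums include a few genes that are not named here.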

Additional observations from a re-analysis of the deposited data

How the results depend on the processing

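The log2 fold changes of 12 members and 6 member regions, chosen for small p, kept their direction in all 197 values under the alternatives, of which 4 passed the threshold. Many of these values could not turn. Of these 18, 8 were listed in 1 genotype only. The replicate block and the rule of 3 of 3 mice leave a log2 fold change as it is. A member or region that drops out under an alternative gives no value. With the mouse number as a replicate block, 0 mRNAs, 0 regions and 0 members were called, so the pairing changed no call as deposited, while on one scale it took the called mRNAs to 0, against 10 without it. Calls among all reliable mRNAs (0 as reported) were 10 on one scale, 109 with a pseudocount of 0.1, 83 with the highest peak and 108 with 3 of 3 mice, and among regions (0 as reported) 200, 284 and 287 on one scale, with that pseudocount and with 3 of 3 mice. Leaving out 1 mouse gave 0 to 247 called mRNAs, 0 to 830 called regions, 0 to 1 called members and 0 calls among overlay mRNAs. The class counts moved more. Overlay members (33) were 19 with 3 of 3 mice. AD unique members (11) were 7 with a score of at least 50, 6 with equal top peaks and 7 with 3 of 3 mice, and those past a fold of 2 (9) were 5 with equal top peaks and 2 with 3 of 3 mice. AD absent members (5) were 3 with peaks under a fold enrichment of 4 left out, and those past a fold of 2 (3) were 1 with the highest peak and 0 with 3 of 3 mice. With a mouse left out, a class needs both remaining mice of that genotype, and by this construction overlay members ran from 24 to 28, AD unique members from 4 to 20 (4 to 16 past a fold of 2) and AD absent members from 2 to 11 (1 to 7 past a fold of 2). With equal top peaks, members per mouse averaged 34.0 in 5xFAD and 37.0 in WT, against 44.3 in 5xFAD and 40.3 in WT as listed, so the order turned. Without read counts, a missing peak and a peak under the caller's limit cannot be told apart, which bears most on members listed at 3 to 6.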
